A study of Mus musculus with 24 samples.

Results

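The circular RNAs described here come from 3 host genes of cell division and DNA replication: Bub1b, Cdkn3 and Tlk1. A circular RNA is a closed transcript made when the end of an exon is spliced back to the start of the same or an upstream exon, and it is counted by the reads that cross that back-splice junction. Every entry of the deposited junction table whose ends lay at exon edges of these hosts on the same strand was taken, which gave 5 circular RNAs of 1717: 3 of Bub1b, 1 of Cdkn3 and 1 of Tlk1. The hosts had been picked because a circular RNA of each differed between TAC and sham at 1 week, so the 1-week values are given as a description without a test, and the later times are tested.

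The libraries are of cardiac fibroblasts from hearts of male C57BL/6J mice with no engineered allele given in the labels. TAC mice had the thoracic aorta narrowed by a ligature at 8 weeks of age, a surgical model of pressure overload, and sham mice had the same operation without the ligature. Cells were isolated on a Langendorff perfusion system 1, 4 or 8 weeks after surgery, and total RNA was depleted of ribosomal RNA. There were 4 TAC and 4 sham libraries at 1 week, 4 TAC and 5 sham at 4 weeks, and 3 TAC and 4 sham at 8 weeks. Whether a group's libraries stem from different animals or from pools is not stated in the labels, so the p-values reflect only the variation among these libraries, which may be technical. No sort or gate for the cell type is given in the labels.

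Bub1b encodes BubR1, a kinase-related protein of the spindle checkpoint, which holds a cell in mitosis by keeping Cdc20 from switching on the anaphase-promoting complex until the chromosomes are attached to the spindle. Cdkn3 encodes a phosphatase that removes an activating phosphate from the kinase Cdk2, a role shown for the human protein. Tlk1 encodes a Tousled-like nuclear kinase most active in S phase, whose known substrate in human cells is the histone chaperone Asf1, which supplies histones for newly copied DNA. Fibroblasts of the healthy adult heart seldom divide, and pressure overload is known for a wave of fibroblast division soon after it begins. A junction read counts the circle alone, so the values below say nothing of the linear messenger RNA or of the protein.

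The 50 bases across each back-splice junction are shown first, because a read over this join is what tells the circle from the linear transcript. They are the last 25 bases of the last exon followed by the first 25 bases of the first exon of the circle, in transcript sense, from the GENCODE M21 transcripts of the build mm10, and capitals mark the 5 bases on each side of the join.
Bub1b exon 9: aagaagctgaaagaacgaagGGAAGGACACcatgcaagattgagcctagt
Bub1b exons 16 to 17: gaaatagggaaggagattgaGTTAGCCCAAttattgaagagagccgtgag
Bub1b exons 17 to 19: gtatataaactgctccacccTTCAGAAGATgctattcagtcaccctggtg
Cdkn3 exons 2 to 6: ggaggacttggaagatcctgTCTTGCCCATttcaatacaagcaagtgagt
Tlk1 exons 2 to 3: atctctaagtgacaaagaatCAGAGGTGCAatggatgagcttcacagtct

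The Bub1b circles lay on the plus strand of chromosome 2 in a transcript of 23 exons. The first was exon 9 alone (chr2:118617706-118617935, 230 bases). The second joined exons 16 to 17 (chr2:118630945-118631899, 275 bases after splicing), and the third joined exons 17 to 19 (chr2:118631759-118635277, 392 bases). Exon 17, of 141 bases, was the last exon of the second circle and the first exon of the third. The Cdkn3 circle held exons 2 to 6 of an 8-exon transcript on the plus strand of chromosome 14 (chr14:46762528-46768897, 439 bases), and the Tlk1 circle held exons 2 to 3 of a 20-exon transcript on the minus strand of chromosome 2 (chr2:70770004-70786995, 191 bases). A pair of whole circles is printed from the first exon on, the short Tlk1 circle and the Bub1b circle that holds the shared exon, with capitals marking the second exon of each, which in Bub1b is exon 17.
Bub1b exons 16 to 17: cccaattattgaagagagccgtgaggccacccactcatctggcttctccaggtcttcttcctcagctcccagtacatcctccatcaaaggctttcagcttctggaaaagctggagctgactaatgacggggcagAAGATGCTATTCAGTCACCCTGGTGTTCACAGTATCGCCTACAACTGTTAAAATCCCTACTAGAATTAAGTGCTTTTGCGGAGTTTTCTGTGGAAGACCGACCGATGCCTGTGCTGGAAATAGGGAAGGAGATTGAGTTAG
Tlk1 exons 2 to 3: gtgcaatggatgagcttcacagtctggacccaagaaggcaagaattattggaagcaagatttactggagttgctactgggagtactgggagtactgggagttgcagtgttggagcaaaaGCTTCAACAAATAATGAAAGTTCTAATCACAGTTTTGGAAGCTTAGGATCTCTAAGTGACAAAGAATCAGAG

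**Figure D1:**
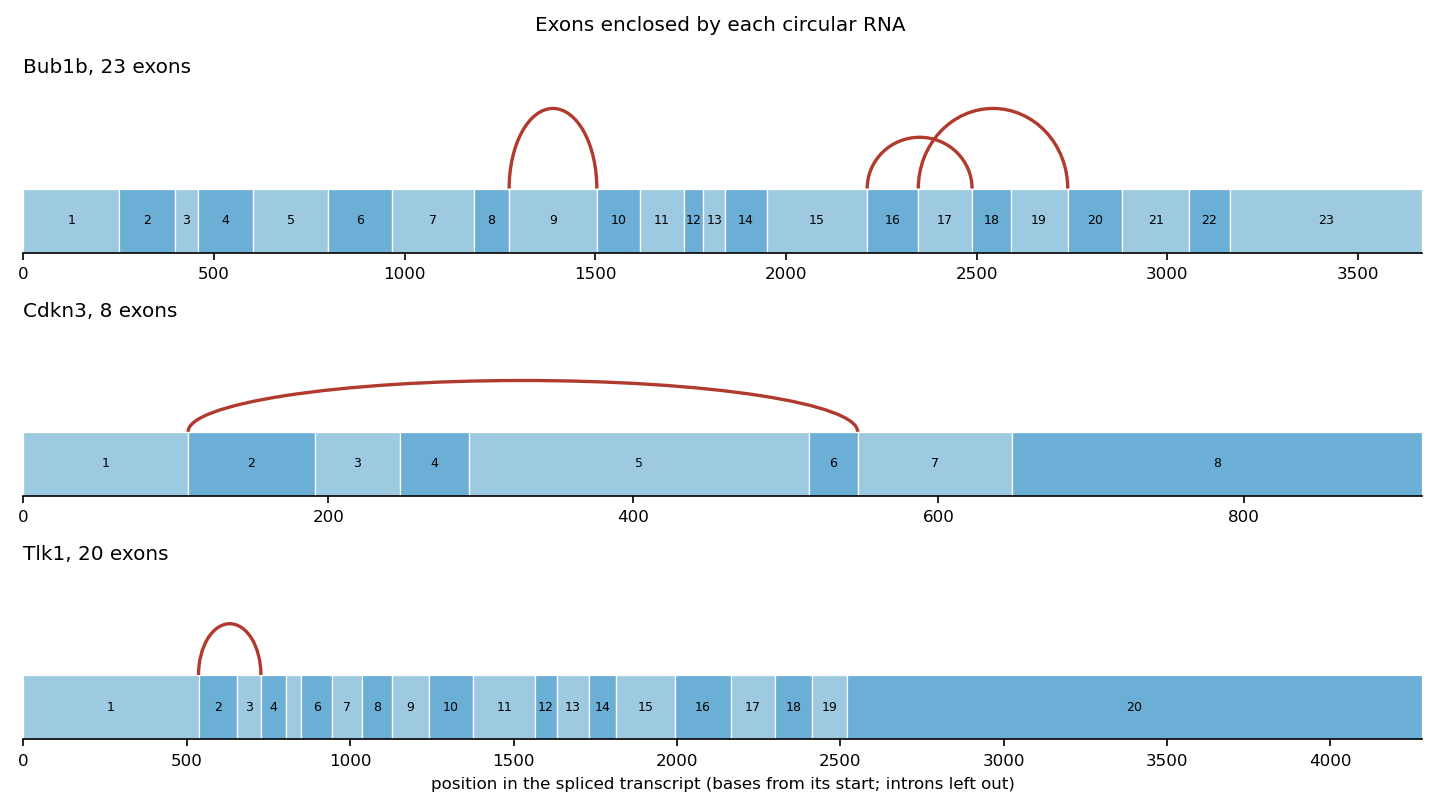
Exons of the annotated Bub1b, Cdkn3 and Tlk1 transcripts drawn to scale along the spliced transcript, with position in bases on the horizontal axis, introns left out and shading that only alternates between exons. Red arcs join the ends of each circular RNA: exon 9, exons 16 to 17 and exons 17 to 19 of the 23 Bub1b exons, exons 2 to 6 of the 8 Cdkn3 exons and exons 2 to 3 of the 20 Tlk1 exons.

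All 5 circles consisted of coding sequence, as did 82.1% of the 1657 circular RNAs of the table whose ends lay in 1 annotated transcript. None of the 5 had a length that is a multiple of 3, which also held for 63.4% of the 1361 coding circles. The Cdkn3 and Tlk1 circles began at exon 2, as 35.7% of the 1657 did. Bub1b was among the 125 of 1178 hosts with at least 3 circles (10.6%), and its exon 9 circle was among the 6.40% made of 1 exon. The hosts differed in the introns beside the circle. The Tlk1 circle lay between introns of 38197 and 12454 bases, and 87.0% of circles had a shorter upstream intron. The Bub1b circle of exons 17 to 19 lay between introns of 680 and 1422 bases, and 3.33% of circles had a shorter upstream intron, the median being 10910 bases. The Tlk1 circle itself was short, with 2.66% of circles shorter after splicing, and the other 4 ran from 230 to 439 bases, beside a median of 420 bases.

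Values are normalized junction reads, that is, whole reads scaled per library by the authors, with a constant offset of 0.01 removed. A read was worth 0.642 to 1.57 normalized reads, in libraries of 3595 to 9146 junction reads in all, and the median circular RNA had 2 reads per library. The Tlk1 circle was ranked 12 by mean level over the 24 libraries, with 657 reads in all, and the Bub1b circle of exons 17 to 19 was ranked 130, with 179 reads, and both were present in every library. The other 3 were scarce. Bub1b exon 9 had 39 reads in 14 libraries, Bub1b exons 16 to 17 had 24 reads in 16 libraries and Cdkn3 had 31 reads in 13 libraries, so most of their values stand for 0 to 5 reads.

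At 1 week after surgery the most abundant Bub1b circle, exons 17 to 19, measured 35.4, 19.2, 9.98 and 10.7 normalized reads in TAC libraries (23, 20, 10 and 11 reads), against 5.02, 4.99, 3.01 and 4.14 in sham libraries (4, 4, 2 and 4 reads). All 4 TAC libraries lay above all 4 sham libraries, and the TAC libraries spread over a far wider range. The means were 18.8 ± 11.8 in TAC and 4.29 ± 0.949 in sham (SD, n = 4 each), a ratio of 4.39, and the log2 fold change was 1.85 on the scale of log2(normalized reads + 0.5), which is used for every log2 value here. The highest value came from TAC replicate 1, which was also the shallowest library of the series with 3595 junction reads, and without that library the log2 fold change was 1.49. In bulk samples such as these, a change in the number of cells of a type and a change in RNA per cell cannot be told apart.

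The other Bub1b circles were scarcer and their groups overlapped at 1 week. Exon 9 measured 0, 3.83, 4.99 and 4.86 normalized reads in TAC libraries, against 2.51, 0, 3.01 and 0 in sham libraries. Exons 16 to 17 measured 6.15, 0.959, 2.99 and 0.973 in TAC libraries, against 3.77, 1.25, 0 and 0 in sham libraries. Both had the higher mean in TAC, at 3.42 against 1.38 in sham for exon 9 and at 2.77 against 1.25 in sham for exons 16 to 17, and in each case at least 1 sham library exceeded at least 1 TAC library. The TAC over sham log2 values were 1.15 for exon 9 and 1.19 for exons 16 to 17. With 1 library left out they ran from 0.70 (without sham replicate 2) to 1.98 (without TAC replicate 1) for exon 9, and from 0.74 (without TAC replicate 1) to 1.81 (without sham replicate 1) for exons 16 to 17. These circles came into the set through their host, not through their own 1-week values.

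Summed over its 3 circles, Bub1b measured 25 ± 11.5 normalized reads in TAC (16.5 to 41.5, n = 4) and 6.92 ± 3.07 in sham (4.14 to 11.3, n = 4) at 1 week. Exons 17 to 19 supplied 73.6% of these reads in TAC (64 of 87) and 63.6% in sham (14 of 22). The share of this circle was thus the larger part in both groups.

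The Cdkn3 circle was read in every TAC library and in no sham library at 1 week. It measured 1.54, 4.79, 2.99 and 4.86 normalized reads in TAC libraries, from 1, 5, 3 and 5 reads, and 0 in all 4 sham libraries. The TAC mean was 3.55 ± 1.59 (SD, n = 4), which is 3.82 times the level that 3 reads over the whole sham group would give. This ratio takes the TAC mean as exact, so it is a description and not a lower limit of the fold change. The groups did not overlap, but they were set apart by 14 reads in all.

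The Tlk1 circle went the other way at 1 week. It measured 12.3, 20.1, 15.97 and 18.5 normalized reads in TAC libraries (8, 21, 16 and 19 reads), against 46.5, 44.9, 36.1 and 39.3 in sham libraries (37, 36, 24 and 38 reads). Every TAC library lay below every sham library, and both groups were tight around their means of 16.7 ± 3.41 in TAC and 41.7 ± 4.85 in sham (SD, n = 4 each). The ratio was 0.401 and the log2 fold change -1.31. The circle was ranked 35 by mean level in the TAC group and 4 in the sham group.

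With limma on log2(normalized reads + 0.5) and Benjamini-Hochberg adjustment over the 1717 circular RNAs, 25 were called at 1 week at an adjusted p under 0.05, which is 1.46% of those tested, 0.757% higher and 0.699% lower in TAC. TAC libraries lay above all sham libraries for 2.21% of the circular RNAs and below them for 3.03%. Because the hosts were chosen from this contrast, nothing is read from the position of their circles among these.

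**Figure D2:**
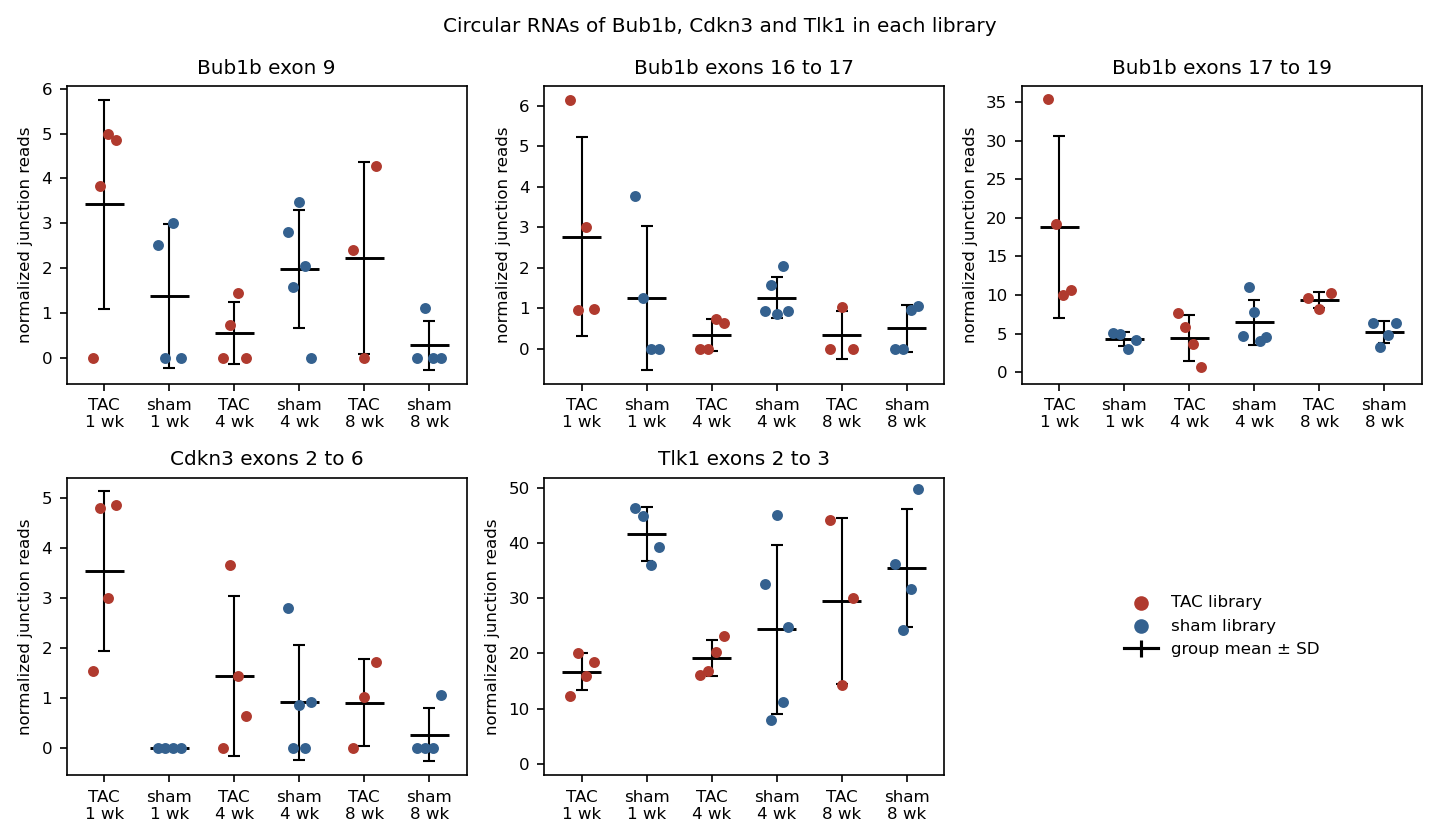
Normalized junction reads of each of the 5 circular RNAs (vertical axes, which differ between panels) in every library, by group at 1, 4 and 8 weeks, with TAC left of sham at each time. Points are libraries, horizontal lines are group means and whiskers are ± SD (n = 3 to 5). Bub1b exons 17 to 19 ranged over 9.98 to 35.4 in TAC and 3.01 to 5.02 in sham at 1 week, and Tlk1 over 12.3 to 20.1 in TAC and 36.1 to 46.5 in sham, while at 4 weeks the groups of both overlapped.

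At 4 weeks the Bub1b circle of exons 17 to 19 measured 7.61, 5.87, 3.63 and 0.642 normalized reads in TAC libraries (9, 8, 5 and 1 reads), against 4.67, 11.0, 7.81, 4.07 and 4.61 in sham libraries (5, 7, 9, 4 and 5 reads). The groups overlapped, the lowest value being in a TAC library and the highest in a sham library. The means were 4.44 ± 3.01 in TAC (SD, n = 4) and 6.43 ± 2.95 in sham (SD, n = 5). The log2 fold change was -0.72 ± 0.51 (SE; 95% interval -1.72 to 0.29; limma adjusted p = 0.816). With 1 library left out it ran from -1.06, without TAC replicate 1, to -0.12, without TAC replicate 4. The latter was the deepest library of the series, with 9146 junction reads. Every 4-week TAC library (6846 to 9146 junction reads) was deeper than every 4-week sham library (3618 to 6524). Depth and TAC therefore cannot be told apart at this time, for this circle or the others.

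Exon 9 of Bub1b measured 0, 0.733, 1.45 and 0 normalized reads in TAC libraries at 4 weeks, against 2.80, 1.57, 3.47, 2.04 and 0 in sham libraries. Its mean was lower in TAC, at 0.546 against 1.98 in sham, and the libraries overlapped at 0. The difference rested on 3 reads in TAC and 10 in sham, a ratio of 0.270 with a counting interval of 0.0477 to 1.05 (exact conditional binomial, 95%, counting error only). Exons 16 to 17 measured 0, 0, 0.726 and 0.642 in TAC libraries, against 0.934, 1.57, 0.868, 2.04 and 0.921 in sham libraries. On the normalized scale all 4 TAC libraries lay below all 5 sham libraries, an arrangement found for 1.22% of all circular RNAs at this time. The reads themselves were 0, 0, 1 and 1 in TAC libraries and 1, 1, 1, 2 and 1 in sham libraries. Libraries with 1 read in TAC and in sham were thus set apart only by the scaling of each library. The TAC group held 2 reads and the sham group 6, a ratio of 0.300 with a counting interval of 0.0296 to 1.68. Neither was called (limma log2 fold change -1.20 ± 0.77 SE, adjusted p = 0.767, for exon 9, and -1.15 ± 0.76 SE, adjusted p = 0.797, for exons 16 to 17).

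The Cdkn3 circle was read in sham libraries too at 4 weeks. It measured 0, 3.67, 1.45 and 0.642 normalized reads in TAC libraries and 2.80, 0, 0.868, 0 and 0.921 in sham libraries. The groups overlapped over most of their range, and the log2 fold change was 0.42 ± 0.76 (SE; 95% interval -1.08 to 1.91; limma adjusted p = 0.952).

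The Tlk1 circle measured 16.1, 16.9, 20.3 and 23.1 normalized reads in TAC libraries at 4 weeks, against 32.7, 7.86, 45.1, 11.2 and 24.9 in sham libraries. The TAC values stayed within a narrow band, while sham replicates 2 and 4 lay below all TAC libraries and sham replicates 1, 3 and 5 above them. The means were 19.1 ± 3.26 in TAC (SD, n = 4) and 24.4 ± 15.4 in sham (SD, n = 5), and the log2 fold change was -0.09 ± 0.32 (SE; 95% interval -0.72 to 0.54; limma adjusted p = 0.972). The lowest sham value came from the shallowest library of that group, replicate 2, with 3618 junction reads, of which 5 were of this circle.

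At 8 weeks the Bub1b circle of exons 17 to 19 measured 9.58, 8.17 and 10.3 normalized reads in TAC libraries (8, 8 and 12 reads), against 6.38, 3.30, 4.81 and 6.36 in sham libraries (6, 3, 5 and 6 reads). All 3 TAC libraries lay above all 4 sham libraries, as they did for 3.09% of all circular RNAs at this time. The means were 9.35 ± 1.07 in TAC (SD, n = 3) and 5.22 ± 1.47 in sham (SD, n = 4), a ratio of 1.79. The log2 fold change was 0.82 ± 0.58 (SE; 95% interval -0.33 to 1.97) and did not pass the test (limma unadjusted p = 0.161, adjusted p = 0.885). Leaving out each library in turn kept it between 0.64 and 0.92. Summed over its 3 circles, Bub1b measured 11.9 ± 2.69 in TAC (9.20 to 14.6, n = 3) and 6.00 ± 1.26 in sham (4.40 to 7.43, n = 4).

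Exon 9 of Bub1b measured 2.39, 0 and 4.29 normalized reads in TAC libraries at 8 weeks, against 0, 1.10, 0 and 0 in sham libraries. The TAC libraries held 7 reads and the sham libraries 1, a ratio of 9.0 with a counting interval of 1.16 to 405.4, and the libraries overlapped at 0. The log2 fold change was 1.51 ± 0.88 (SE; 95% interval -0.22 to 3.24; limma unadjusted p = 0.0871, adjusted p = 0.810), and with 1 library left out it ran from 0.85, without TAC replicate 3, to 2.48, without TAC replicate 2. Exons 16 to 17 were at the limit of detection, with 0, 1.02 and 0 in TAC libraries and 0, 0, 0.962 and 1.06 in sham libraries, from 1 read in TAC and 2 in sham, and no difference was detectable at this depth.

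The Cdkn3 circle measured 0, 1.02 and 1.71 normalized reads in TAC libraries at 8 weeks, against 0, 0, 0 and 1.06 in sham libraries. There were 3 reads in TAC and 1 in sham, a ratio of 3.86 with a counting interval of 0.310 to 202.4, so a difference was not detectable at this depth (limma log2 fold change 0.84 ± 0.87 SE, adjusted p = 0.935). The Tlk1 circle measured 44.3, 14.3 and 30 in TAC libraries, against 36.2, 24.2, 31.8 and 49.9 in sham libraries. The groups overlapped, with means of 29.5 ± 15.0 in TAC (SD, n = 3) and 35.5 ± 10.8 in sham (SD, n = 4), and the log2 fold change was -0.35 ± 0.37 (SE; 95% interval -1.07 to 0.36; limma adjusted p = 0.935).

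Read against all circular RNAs, limma with Benjamini-Hochberg adjustment called 0 of the 5 at 4 weeks, where 0.116% of the 1717 were called, and 0 of the 5 at 8 weeks, where 0% were called. At an unadjusted p under 0.05 the count of the 5 was 0 at both times, against 7.98% of all at 4 weeks and 6.06% at 8 weeks. With equal weight to 4 and 8 weeks, 0 of the 5 were called, against 0.116% of all, and 0 had an unadjusted p under 0.05, against 6.87% of all. The averaged log2 values were 0.05 ± 0.39 (SE) for Bub1b exons 17 to 19, 0.15 ± 0.59 for exon 9, -0.71 ± 0.58 for exons 16 to 17, 0.63 ± 0.58 for Cdkn3 and -0.22 ± 0.24 for Tlk1, with limma adjusted p-values of 0.876 to 0.984. For Tlk1 the 95% interval of this average ran from -0.70 to 0.25, and for Bub1b exons 17 to 19 from -0.71 to 0.81. A limma-voom fit on the whole reads called 0 of the 5 in these comparisons too.

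**Figure D3:**
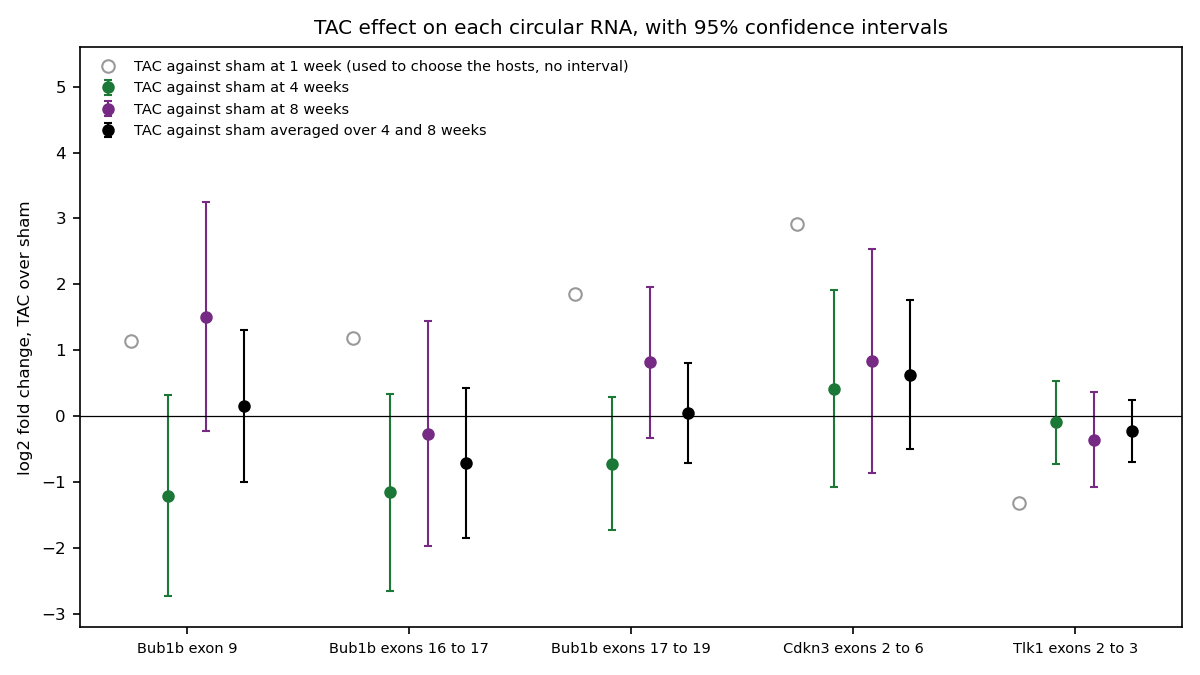
Log2 fold change of TAC over sham for each of the 5 circular RNAs at 1, 4 and 8 weeks, on the scale of log2(normalized reads + 0.5). Filled points with whiskers are limma estimates with 95% intervals at 4 weeks, at 8 weeks and averaged over both, and the open 1-week points carry no interval because that contrast chose the hosts. The 1-week Cdkn3 point depends on the added 0.5, as all its sham libraries were at 0. Every interval spans 0, and Bub1b exons 17 to 19 were at 1.85, -0.72 and 0.82 at 1, 4 and 8 weeks.

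The sign of the TAC difference of 2 Bub1b circles was not the same at 4 and 8 weeks. The TAC effect at 8 weeks exceeded that at 4 weeks by 1.54 ± 0.78 (SE; 95% interval 0.01 to 3.06) on the log2 scale for exons 17 to 19, with an unadjusted p of 0.0486 and a limma adjusted p of 0.765, and by 0.94 without TAC replicate 4 at 4 weeks. For exon 9 it exceeded it by 2.72 ± 1.17 (SE; 95% interval 0.41 to 5.02), with an unadjusted p of 0.0210 and a limma adjusted p of 0.692. Of the 5 circles 0 were called in this comparison, as were 0% of all, and 2 had an unadjusted p under 0.05, both positive, against 6.35% of all in either direction and 1.86% in the positive one. The limma-voom fit called 0 of the 5. This comparison includes the 4-week TAC libraries, which were deeper than the sham libraries of that time.

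Between times within an operation, the Bub1b circle of exons 17 to 19 was higher at 8 than at 4 weeks in TAC by 1.31 ± 0.58 on the log2 scale (SE; 95% interval 0.16 to 2.46; unadjusted p = 0.0250, limma adjusted p = 0.946), and all 3 libraries at 8 weeks lay above all 4 at 4 weeks, as they did for 3.03% of all circular RNAs. Without TAC replicate 4 at 4 weeks, the deepest library of the series, the value was 0.71. The 4-week TAC libraries held 6846 to 9146 junction reads and the 8-week ones 4685 to 6731. Depth and time in TAC therefore cannot be told apart here. In sham it differed by -0.22 ± 0.51 (SE). The Tlk1 circle was higher at 8 than at 4 weeks in sham by 0.75 ± 0.32 (SE; 95% interval 0.12 to 1.38; unadjusted p = 0.0190, limma adjusted p = 0.659; 0.43 without sham replicate 2 at 4 weeks), and by 0.49 ± 0.37 (SE) in TAC. Exon 9 of Bub1b was lower at 8 than at 4 weeks in sham by -1.60 ± 0.77 (SE; unadjusted p = 0.0391, limma adjusted p = 0.692). None of these passed the adjusted threshold, and 0% of all circular RNAs did in either comparison. At an unadjusted p under 0.05 there were 1 of the 5 in TAC, against 4.14% of all, and 2 of the 5 in sham, against 6.93% of all, and limma-voom called 0 of the 5 in both.

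Group means of the Bub1b circle of exons 17 to 19 ran in the order 18.8 in TAC at 1 week, 9.35 in TAC at 8 weeks, 6.43 in sham at 4 weeks, 5.22 in sham at 8 weeks, 4.44 in TAC at 4 weeks and 4.29 in sham at 1 week. The last 4 groups overlapped one another, and the 8-week TAC libraries overlapped the lower libraries of the 1-week TAC group and the highest sham library at 4 weeks. The Tlk1 means ran in the order 41.7 in sham at 1 week, 35.5 in sham at 8 weeks, 29.5 in TAC at 8 weeks, 24.4 in sham at 4 weeks, 19.1 in TAC at 4 weeks and 16.7 in TAC at 1 week, and each neighbouring pair overlapped. Tlk1 was usually the more abundant. The summed Bub1b circles exceeded it in 4 of the 24 libraries, TAC replicates 1, 2 and 3 at 1 week and sham replicate 2 at 4 weeks, where Bub1b summed to 14.1 and Tlk1 to 7.86.

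The share of Bub1b reads on the junction of exons 17 to 19 stayed the larger part throughout, at 82.1% in TAC (23 of 28 reads) and 65.2% in sham (30 of 46) at 4 weeks, and 77.8% in TAC (28 of 36) and 87.0% in sham (20 of 23) at 8 weeks. In every group the other 2 circles together made up the smaller part.

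Across the 24 libraries the levels of the circles went together only loosely, given as a description over points that share depth and groups. On log2 values the Pearson correlation of Bub1b exons 17 to 19 was 0.37 with Cdkn3 (Spearman 0.42), 0.34 with Bub1b exons 16 to 17 (Spearman 0.32), 0.21 with Bub1b exon 9 (Spearman 0.30) and -0.30 with Tlk1 (Spearman -0.28). The 1-week libraries that chose the hosts are part of these values. Bub1b exon 9 and exons 16 to 17 had a correlation of 0.06 although they come from the same host.

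Among the 268 circular RNAs of other hosts with a mean of at least 5 normalized reads, those whose log2 levels went most closely with each host's main circle were named by Pearson correlation over the 24 libraries. For Bub1b exons 17 to 19 they were Tns3 exons 14 to 16 (0.52), Qrich1 exons 3 to 4 (0.51), Aff3 exons 3 to 5 (0.50), Fxr2 exons 10 to 14 (0.48) and Cdyl exon 2 (0.43). For Cdkn3 they were a pair of Ezh2 circles of exons 2 to 3 that differ in their ends (0.71 and 0.57), Fam126a exons 3 to 10 (0.58), Tns3 exons 18 to 20 (0.53) and Hnrnpll exons 2 to 7 (0.52). For Tlk1 they were Mboat2 exons 2 to 3 (0.62), Lrch3 exons 10 to 13 (0.58), Efnb2 exon 2 (0.51), Rfx7 exons 3 to 4 (0.51) and Fubp3 exons 10 to 11 (0.49). The Spearman values were 0.28 to 0.67 for the Bub1b list, 0.52 to 0.73 for the Cdkn3 list and 0.31 to 0.76 for the Tlk1 list. Without the 2 libraries farthest from the median of each main circle, the Pearson values ran over 0.16 to 0.58 for Bub1b. They ran over 0.39 to 0.62 for Cdkn3 and 0.28 to 0.72 for Tlk1, the lowest being those of Cdyl, the second Ezh2 circle and Efnb2. All these values were picked as the highest of 268 and include the 1-week libraries, so they are a description only. The Cdkn3 circle itself averaged 1.18 normalized reads, below the mean asked of its partners.

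Other genes of the same processes contributed few circles. Of 303 genes listed for the spindle checkpoint and kinetochore, cyclins and their kinases and inhibitors, mitotic kinases, motors and spindle, the anaphase-promoting complex, cohesin and condensin, DNA replication, and Tousled-like kinases with histone chaperones, 23 were hosts in the table, with 33 circular RNAs apart from the 5 above. None of the 33 was called in either direction at 1, 4 or 8 weeks, and limma adjusted p-values were 0.209 or higher at 1 week, 0.281 or higher at 4 weeks and 0.810 or higher at 8 weeks. At an unadjusted p under 0.05 there were 4 at 1 week, 4 at 4 weeks and 1 at 8 weeks, against 11.7%, 7.98% and 6.06% of all circular RNAs at these times, and limma-voom called 0 of the 33 at each time. At 1 week 20 of the 33 were positive and 13 negative, with a median log2 fold change of 0.46, beside 0.04 for all circular RNAs. At 4 weeks 18 were positive and 15 negative, with a median of 0.04 beside 0.12 for all, and at 8 weeks 15 were positive and 18 negative, with a median of -0.10 beside 0.03 for all.

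The spindle checkpoint list, the one of Bub1b, held 3 further circles, from Zwilch, a kinetochore protein that works with Zw10, from Mad1l1, which recruits Mad2 to kinetochores, and from Knl1, the scaffold that binds the Bub proteins. Zwilch exons 6 to 7 averaged 4.88 normalized reads in TAC and 4.08 in sham at 1 week, Mad1l1 exons 5 to 9 averaged 1.99 in TAC and 1.20 in sham, and Knl1 exons 9 to 11 averaged 1.73 in TAC and 0.751 in sham. Their log2 values were 0.24, 1.01 and 0.94 in that order, and at 4 weeks they were -0.35, -0.48 and -0.11, none past the test. The list of cyclins, their kinases and inhibitors, the one of Cdkn3, held a pair of circles of Lin54, a DNA-binding subunit of the DREAM complex, at 1.08 for exons 2 to 4 and 0.47 for exons 3 to 4 at 1 week.

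The list of mitotic kinases, motors and spindle held 10 circles of 7 hosts, with 7 positive and 3 negative at 1 week and a median of 1.03. Its 4 circles at an unadjusted p under 0.05 were all higher in TAC, as were 6.17% of all circular RNAs at that threshold: exons 2 to 6 of Clasp2, a microtubule plus-end protein (log2 fold change 2.03), exons 17 to 23 of Spag5, a spindle protein (1.76), exons 16 to 21 of Clasp2 (1.66) and exons 10 to 11 of Ckap5, a microtubule polymerase (1.58). The limma adjusted p-values were 0.209 to 0.405, so none was called. The first Clasp2 circle averaged 2.45 ± 2.35 normalized reads in TAC and 0 in all 4 sham libraries, and the Spag5 circle 3.23 ± 2.55 in TAC and 0.628 ± 1.26 in sham (SD, n = 4 each). The most abundant of the list were those of Tacc1, a centrosome protein, at 4.57 ± 3.29 in TAC and 2.10 ± 1.83 in sham, and exons 5 to 7 of Espl1, the separase that cuts cohesin at anaphase, at 4.63 ± 4.26 in TAC and 1.52 ± 1.09 in sham. The spread of the TAC libraries exceeded the difference of the means for both.

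The remaining lists were smaller. The anaphase-promoting complex held a pair of Anapc1 circles, the largest subunit, at 0.23 for exons 8 to 9 and 1.16 for exons 3 to 14 at 1 week. Cohesin and condensin held 8 circles, 4 positive and 4 negative at 1 week, with exons 5 to 7 of Esco1, a cohesin acetyltransferase, at -0.25 and exons 2 to 3 of Stag1, a cohesin subunit, at -0.21. DNA replication held Prim2 exons 6 to 7, from the large primase subunit, at -0.06 and Pola1 exons 2 to 4, from the catalytic subunit of polymerase alpha, at -0.22. The histone chaperone list, the one of Tlk1, held 6 circles, 2 positive and 4 negative at 1 week with a median of -0.21, among them Cabin1 exons 27 to 29 at -0.22 and Ubn2 exons 4 to 7 at -0.47, both hosts encoding partners of the histone chaperone Hira. At 4 weeks the lowest unadjusted p-values of all the lists were those of Prim2 (0.00260; 0.550 ± 1.10 in TAC and 3.11 ± 1.23 in sham, log2 fold change -2.18) and of Esco1 exons 5 to 7 (0.00292; log2 fold change 1.65), each with a limma adjusted p of 0.281.

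**Figure D4:**
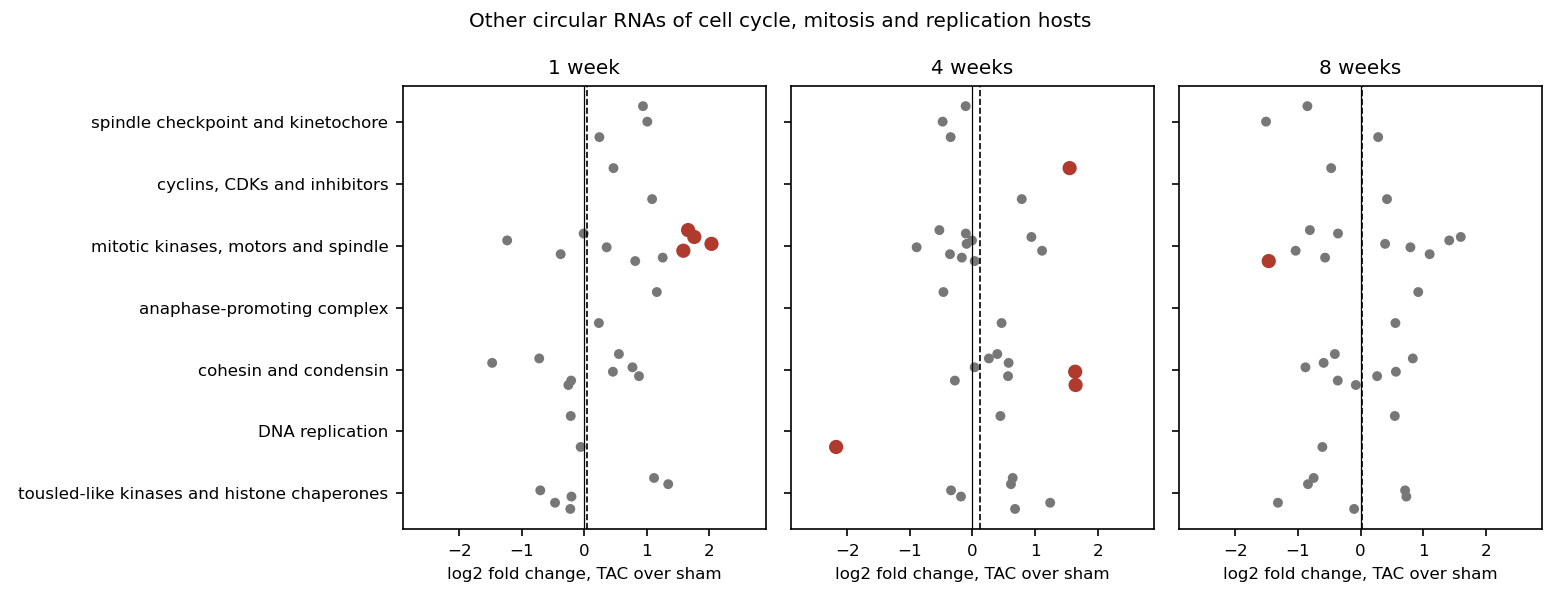
Log2 fold change of TAC over sham for the 33 other circular RNAs of the 7 gene lists (rows) at 1, 4 and 8 weeks, 1 point per circular RNA. Larger red points have an unadjusted p under 0.05, of which there are 4, 4 and 1 at the 3 times, and the dashed line is the median of all 1717 circular RNAs. None passed the adjusted threshold.

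Circular RNAs of cell type markers also differed between the groups and are given beside these results. At 1 week the summed level of 11 circles of 6 cardiomyocyte markers (Ryr2, Ttn, Mlip, Cacna1c, Slc8a1 and Myocd, of 30 listed) ran over 21.4 to 34.9 normalized reads in TAC and 46.5 to 148.8 in sham without overlap, and 2 of the 11 were called lower in TAC by limma. The sum of 7 circles of 6 fibroblast markers (Dcn, Fbln1, Fbn1, Svep1, Lama2 and Itgbl1, of 25 listed) ran over 16.5 to 38.9 in TAC and 9.02 to 16.3 in sham, and 1 of the 7 was called higher. The 19 leukocyte marker circles summed to 78.8 to 163.0 in TAC and 70.6 to 183.4 in sham, the 10 endothelial ones to 15.0 to 37.9 in TAC and 23.9 to 36.2 in sham, and the mural list held 1 circle, of Abcc9, at 0.973 to 4.61 in TAC and 0 to 9.31 in sham. The remaining markers of each list, among them Myh6, Tnnt2, Col1a1, Pdgfra and Ptprc, host no circle in the table. At 1 week the Tlk1 mean was thus lower, and the Bub1b and Cdkn3 means higher, in TAC. In the same group the cardiomyocyte sum was lower and the fibroblast sum higher. TAC and marker content cannot be told apart in this split of libraries, and the part of marker content in the result was not tested.

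At 4 weeks limma called 2 circular RNAs of all 1717, both of them Ttn circles of the cardiomyocyte list and both lower in TAC, and the 2 called in the average of 4 and 8 weeks were also cardiomyocyte marker circles lower in TAC. At 8 weeks none was called. The cardiomyocyte sum at 4 weeks ran over 17.4 to 41.8 in TAC and 41.5 to 134.5 in sham, and the fibroblast sum over 18.6 to 31.9 in TAC and 12.1 to 15.0 in sham. At 8 weeks the cardiomyocyte sum ran over 49.7 to 58.2 in TAC and 61.6 to 125.6 in sham, and the fibroblast sum over 14.6 to 29.9 in TAC and 5.32 to 20.2 in sham. The cardiomyocyte sum had the lower mean and the fibroblast sum the higher mean in TAC at all 3 times. Single circles did not all follow their sum. Of the 11 cardiomyocyte circles, 8, 9 and 8 were negative at 1, 4 and 8 weeks, with median log2 fold changes of -1.36, -0.41 and -0.98. Of the 7 fibroblast circles, 5, 3 and 5 were positive at these times, with medians of 0.13, -0.18 and 0.59. At 4 and 8 weeks the Tlk1 mean was lower in TAC, with ratios of 0.784 and 0.832, and the Cdkn3 mean was higher. Neither passed the test. The log2 values of both changed sign at 4 weeks when 1 library was left out, and that of Tlk1 at 8 weeks too. Their 1-week directions, with a ratio of 0.401 for Tlk1, belong to the contrast that chose the hosts. The mean of Bub1b exons 17 to 19 was higher in TAC at 1 and 8 weeks and lower at 4 weeks.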

How the data were processed

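The data are back-splice junction values of 24 libraries of mouse cardiac fibroblasts. Per the submitters' processing notes, FastQC, Trimmomatic and STAR were used with the build mm10, without versions. The authors' table is named for DCC, a circular RNA caller, whose settings and filters, like the scaling of the values, are not given in these sources. What the authors deposited is a normalized junction signal, not raw reads. With 0.01 subtracted, 100% of the values were whole multiples, within 0.001 read, of a step fixed for each library. Levels are given with this 0.01 removed, and the libraries totalled 3595 to 9146 reads.

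Junctions were assigned to hosts by exon edges of GENCODE M21: 1666 matched at both ends, 36 at 1 end and 15 at none. The test was limma 3.58.1 (R 4.3.3) with an intensity trend on log2(normalized reads + 0.5), 6 groups of all 24 libraries in 1 fit, and Benjamini-Hochberg adjustment over 1717 circular RNAs with calls under 0.05. Requiring 2 or more reads in 3 or more libraries removed none. Scarce circles had as little as 0 or 1 read per group. Log2 values understate their change, and counting intervals cover counting error only.

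The members and the gene lists were chosen with earlier results of these data known. Genes named were all circles of the 3 hosts, the 2 most abundant of each list and any called, and the 5 closest in level to each host's main circle. The Knl1, Clasp2, Spag5 and Ckap5 circles were named after their values were seen. Alternatives were other pseudocounts, filters, TMM scaling, the compared groups alone, a replicate block, each library left out, and limma-voom on the whole reads, chosen after seeing the data. Count models planned for raw reads were not run. The deposited values are normalized, and limma-voom was fitted instead to the whole reads recovered from them.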

Additional observations from a re-analysis of the deposited data

Results flagged for a closer look

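The circles of the 3 hosts were examined in 24 sets of 4 or 5 libraries for a library far from the others. A chance rate of about 1 in 20 sets is meant for continuous values and need not hold for sets of 0 and 1 read. In sham at 8 weeks, Bub1b exon 9 measured 1.1 normalized reads in replicate 2 and 0 in the other 3 libraries. In the same group, Cdkn3 measured 1.06 in replicate 4 and 0 in the other 3 libraries. Each of these values stands for 1 read.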

How the results depend on the processing

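Counts of the 5 circles called were 0 in each comparison outside 1 week under every alternative run. At 1 week 4 of the 5 were higher in TAC under each alternative that kept all 5. The hosts were chosen from that contrast, so this count only describes the same libraries and lends no support. Under settings other than leaving out a library, 241 values of single circles and counts kept their direction, 6 changed sign and 2 moved. Those that changed sign were Tlk1 at 4 weeks with TMM scaling (0.023), Bub1b exons 16 to 17 at 8 weeks with the replicate block (0.019), Bub1b exon 9 averaged over both times with the replicate block (-0.17) and limma-voom (-6.14e-05), Bub1b exons 17 to 19 averaged with limma-voom (-0.00793), and Bub1b exons 16 to 17 between TAC times with limma-voom (0.20). With a pseudocount of 0.1 the 1-week values were 5.06 for Cdkn3 and 2.18 for Bub1b exons 16 to 17. Both circles had sham libraries at 0, where the log2 value depends on the added constant. The cause of the sign changes was not tested.

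Leaving out 1 library at a time changed none of these counts. Log2 values that changed sign under it ranged, at 4 weeks, from -0.084 to 0.94 for Cdkn3 and from -0.42 to 0.20 for Tlk1, and at 8 weeks from -0.80 to 0.02 for Bub1b exons 16 to 17 and from -0.71 to 0.086 for Tlk1. Averaged they ranged from -0.18 to 0.64 for Bub1b exon 9 and from -0.12 to 0.35 for exons 17 to 19. For the difference between 8 and 4 weeks they ranged from -0.10 to 1.05 for Cdkn3 and from -0.62 to 0.18 for Tlk1, and between TAC times from -0.62 to 0.18 for Bub1b exons 16 to 17 and from -0.82 to 0.32 for Cdkn3.

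The 1-week calls that chose the hosts changed with the libraries in the fit. Bub1b exons 17 to 19, Cdkn3 and Tlk1 were called in the fit as reported, which called 25 of all 1717 circular RNAs. Of these circles 0 were called with the 1-week libraries alone, without TAC replicate 3 or without sham replicate 2. The calls among all 1717 fell too, to 4, 8 and 6 in that order. These counts describe the choice of hosts and do not test it. Over the 8 fits that leave out a 1-week library, Bub1b exons 17 to 19 were called in 0, Cdkn3 in 2 and Tlk1 in 5. Those fits called 6 to 32 of all circular RNAs. With limma-voom Cdkn3 and Tlk1 were called, among 11 of all, and with a pseudocount of 0.1 Tlk1 alone, among 19 of all.

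Pairing was checked by the replicate numbers of the sample titles only. Over 11 same-number pairs the deviations correlated at -0.08 to 0.135, and 1 pair exceeded 0.1. A library matched its own number best in 4 of 11. In sham at 4 and 8 weeks these numbers do not match those in the authors' column names. At these times neither the check nor the replicate block could show or exclude pairing by the column names. With the replicate block 0 of the 5 circles were called at 4 and 8 weeks, and comparisons between times could not be fitted with it. A filter at a mean of 5 normalized reads kept only Bub1b exons 17 to 19 and Tlk1 of the 5. Depth limits the other 3 circles, which rest on 24 to 39 reads each over all libraries. The 2 count models planned as alternatives for raw reads were not run.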
